A study of Mus musculus with 24 samples.

Results

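Interferon-stimulated genes (ISGs) and interferon regulatory factors (IRFs) were followed through p53 restoration in mouse small cell lung cancer (SCLC) lines. The set was chosen by symbol, as 48 named genes of the interferon response, with no threshold on their measured values, though with earlier results of these data known. All 48 were found among the 25239 genes of the expression table, and 41 were expressed highly enough to be tested. They cover the IFIT proteins, the ISG15 system, the IFITM proteins, the OAS enzymes, IRF and STAT transcription factors, cytosolic and endosomal RNA sensors, direct antiviral effectors, PARP and ubiquitin ligases, the GBP and IRG GTPases, and a further group of induced genes.

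RNA was sequenced from 6 lines made from tumors of a genetically engineered mouse in which Rb1 and Rbl2 are deleted by Cre and both Trp53 alleles carry a removable gene trap (Rb1 fl/fl, Trp53 XTR/XTR, Rbl2 fl/fl, Rosa26 FlpO-ER). Control lines carry the same alleles and lack p53 because the trap is in place, whereas 4-hydroxytamoxifen (4-OHT) switches on the FlpO-ER recombinase, removes the trap and gives the Restored condition. The study sorted its lines by what p53 did to them: Type D lines lost viability after restoration and Type V lines stayed viable. The Type D lines were 4711-1, 4711-18 and 4716-11, and the Type V lines were 4711-11, 4716-10 and 4716-14. Each line gave 1 library at 72 h in each of 4 conditions, which were Control (vehicle), Control + CsA, Restored (4-OHT) and Restored + CsA, so that 8 groups of 3 lines made up 24 libraries. CsA, cyclosporin A, binds cyclophilins. What the 4711 and 4716 in the line names stand for was not stated in the sources used here, and the 3 lines of a type were treated as its replicates. Cre was delivered to the lung by an adenovirus with a CMV promoter that is not specific to a cell type, and the mice were of mixed background. Lines are always listed below in the order given above.

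Interferons bind receptors at the cell surface and act through JAK kinases on STAT proteins, among them STAT2, which joins IRF9 to switch on ISGs. The same genes can also be switched on by IRF3 and IRF7 after viral or self nucleic acid is sensed, and many of them keep a low activity in cells that meet no virus. ISG proteins block viral entry, degrade or sequester RNA, tag proteins with ISG15 or raise antigen presentation, and p53 is known to act on several genes of this network.

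The promoters of the members were searched for motifs of these routes. RefSeq promoter windows on build GRCm38.p6 were found for 39 of the 48 members. In the 250 bases before the start site, the interferon-stimulated response element GAAANNGAAA was searched on both strands, with overlapping matches counted one by one, and it was present for 15 members (38.5%) against 3.46% of 27025 symbols with a window. The STAT motif TTCNNNGAA was present for 8 members (20.5%) against 8.13% of symbols, and the p53 decamer, the unit from which p53 response elements are built, for 7 members (17.9%) against 8.2% of symbols. Of the 12 members that were lower in Type D Control, 11 had a window, and the response element was in that of Gbp2, Igtp and Isg15. A match is a string of letters and not a measured binding site. The 160 bases before the start are given here for 8 members on which the results turn, with matches to the response element or to the p53 decamer in capitals.

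Isg15, Ifit3 and Igtp show the response element. Their stretches are chr4:156200819-156200978 on the minus strand for Isg15, chr19:34583369-34583528 on the plus strand for Ifit3 and chr11:58199396-58199555 on the plus strand for Igtp. The capitals in Isg15 are 3 overlapping matches, those in Ifit3 are 2 matches on the opposite strand, and Igtp has 1.
Isg15: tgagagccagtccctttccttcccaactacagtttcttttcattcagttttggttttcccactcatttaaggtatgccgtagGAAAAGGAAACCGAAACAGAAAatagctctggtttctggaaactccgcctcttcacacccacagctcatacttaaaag
Ifit3: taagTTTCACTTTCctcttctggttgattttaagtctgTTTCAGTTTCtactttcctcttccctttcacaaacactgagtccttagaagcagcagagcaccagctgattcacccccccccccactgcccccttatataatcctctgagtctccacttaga
Igtp: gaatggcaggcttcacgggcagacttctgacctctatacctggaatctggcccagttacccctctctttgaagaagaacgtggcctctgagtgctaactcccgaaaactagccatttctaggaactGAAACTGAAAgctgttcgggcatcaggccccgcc

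Ifitm2 and Ifitm3 lie in the same gene cluster on chromosome 7 and are shown because their levels differed so much in Type D lines. Their stretches are chr7:140955962-140956121 on the minus strand for Ifitm2 and chr7:141010745-141010904 on the minus strand for Ifitm3. The capitals are a response element in Ifitm2 and a p53 decamer in Ifitm3. Ifitm2 also has p53 decamers that begin 198 and 216 bases before the start, within the bases searched but outside the stretch given.
Ifitm2: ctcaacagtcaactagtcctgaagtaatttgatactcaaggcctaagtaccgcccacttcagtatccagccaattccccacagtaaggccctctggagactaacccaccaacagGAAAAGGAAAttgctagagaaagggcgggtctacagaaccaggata
Ifitm3: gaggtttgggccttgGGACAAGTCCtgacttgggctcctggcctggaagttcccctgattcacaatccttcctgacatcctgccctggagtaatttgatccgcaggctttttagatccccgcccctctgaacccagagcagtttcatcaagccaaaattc

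Xaf1, Ifi35 and Trim21 are the members that passed the test for restoration in both types. Their stretches are chr11:72301469-72301628 on the plus strand for Xaf1, chr11:101448252-101448411 on the plus strand for Ifi35 and chr7:102565483-102565642 on the minus strand for Trim21. Xaf1 has a p53 decamer in capitals, and neither motif was found in the stretches of Ifi35 and Trim21.
Xaf1: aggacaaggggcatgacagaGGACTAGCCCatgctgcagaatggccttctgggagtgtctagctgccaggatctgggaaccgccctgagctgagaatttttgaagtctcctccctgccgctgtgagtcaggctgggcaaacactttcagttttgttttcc
Ifi35: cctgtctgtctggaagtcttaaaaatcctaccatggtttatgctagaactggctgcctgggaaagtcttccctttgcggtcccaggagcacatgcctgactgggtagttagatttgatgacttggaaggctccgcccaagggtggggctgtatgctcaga
Trim21: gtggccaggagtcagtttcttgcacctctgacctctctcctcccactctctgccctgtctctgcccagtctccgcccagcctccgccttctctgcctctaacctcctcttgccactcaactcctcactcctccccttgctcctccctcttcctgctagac

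Expression was given as TPM, the share of a library's transcripts that a gene accounts for, scaled for gene length so that every library has the same total. Trp53, the gene that was switched, was at 10.5 to 15.3 TPM in the 12 libraries without restoration and at 181 to 253 TPM in the 12 with it, as the labels say. Between 11853 and 12651 genes reached 1 TPM in a library, and the number of reads behind a value is unknown. The labels call the lines SCLC, but several defining neuroendocrine genes were at or near 0: Chga was listed at 0 in all 24 libraries and Neurod1 did not exceed 0.0954 TPM. Insm1 was at no more than 3.39 TPM in Type D and at 1.13 to 49.6 TPM in Type V. The 9 neuroendocrine markers together came to between 1.7 and 6.11 TPM in Type D and between 9.55 and 61.3 TPM in Type V. The 6 fibroblast markers together came to between 0.304 and 1.93 TPM in Type D and between 75.3 and 563 TPM in Type V. Of the 6 hematopoietic markers, Cd3e was listed at 0 in all 24 libraries, Ptprc did not exceed 0.154 TPM and Adgre1 did not exceed 0.0449 TPM, while Cd68 reached 55.3 TPM. In bulk libraries, fewer cells that express a gene and less RNA of it per cell cannot be told apart.

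Across the 24 libraries the members ranged from a listed 0 to 1803 TPM, the highest value of Ifitm3. Ifitm2, a membrane protein that blocks viral entry, lay between 190.4 and 764 TPM in every library. The 7 members below the expression filter, 1 TPM in at least 3 libraries, included antiviral effectors. Oas1a, Oas2 and Oas3, which make the activator of RNase L, did not exceed 0.849, 0.362 and 0.66 TPM. Iigp1, a GTPase of the IRG family, did not exceed 0.534 TPM, and Ifi44 did not exceed 1.15 TPM. Rsad2, which encodes viperin, did not exceed 2.07 TPM, and Mx1, a GTPase that traps viral particles, did not exceed 5.36 TPM. Other effectors were not low: Bst2 lay at 37.2 to 96.4 TPM, Ifit2 at 18.4 to 98.0 TPM and Eif2ak2 at 16.9 to 45.3 TPM. Of the tested members, 10 passed the filter through Type V libraries alone and 1 through Type D libraries alone, so that for those genes the filter itself favors a difference.

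**Figure D1:**
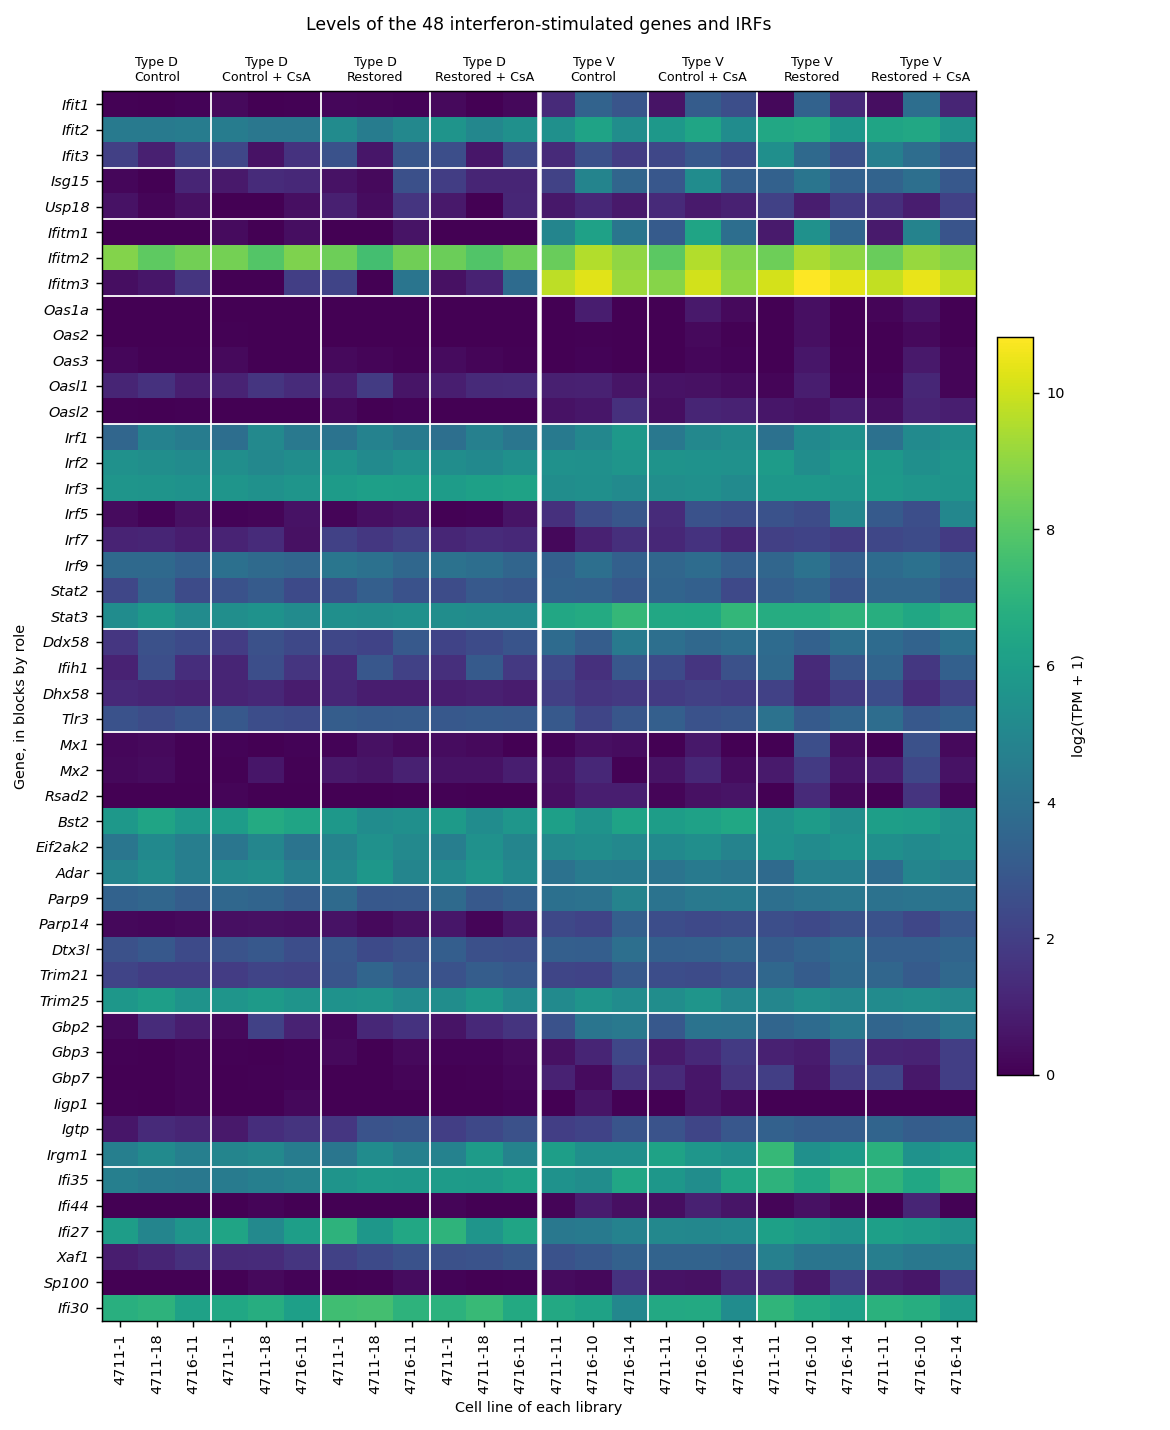
Levels of the 48 members as log2(TPM + 1) by color, with genes in rows blocked by role and the 24 libraries in columns blocked by group, each column named by its line. Ifitm3 and Ifitm1 are dark in the Type D columns and bright in most Type V columns, Ifitm2 is bright in all, and the OAS genes are dark throughout.

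The first question was whether the types differ before p53 is restored. In Control libraries 12 of the 41 tested members were lower in Type D, and these 12 were all the members that passed. A gene was counted when limma gave a Benjamini-Hochberg adjusted p under 0.05 over the 14104 genes tested and a difference of at least 1 on the log2(TPM + 1) scale. Of all tested genes 8.83% passed in this comparison, and 4.41% passed as lower in Type D. Among the 30 members that passed the expression filter in both types, 9 were lower in Type D, beside 3.23% of all genes of that class, and the other 3 were Ifitm1, Parp14 and Irf5, which passed through Type V alone. The median difference over the tested members was -0.71 on the log2(TPM + 1) scale, beside -0.12 over all genes, and the latter became -0.02 after median-ratio scaling. Over the 30 members of both types the median was -0.56, beside -0.11 over all genes of that class. Type D libraries were wholly below Type V libraries for 22 of the 41 members, beside 19.5% of all tested genes. Of these 22, Ifit1, Usp18, Ifitm1, Oasl2, Irf5, Parp14, Gbp3, Gbp7 and Sp100 passed the filter through Type V alone, which itself favors such a separation. The 19.5% was not split by how genes passed the filter, so it is not a matched share for these 22. Type D libraries were wholly above for 3, which were Irf3, Adar and Ifi27, beside 11.9% of all, and overlapped for 16.

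The IFITM family gave the widest contrast. Ifitm3, which restricts the entry of influenza and other enveloped viruses, was at 0.338, 0.593 and 2.21 TPM in the Type D Control lines and at 860, 1290.5 and 591 TPM in the Type V Control lines. The difference was -8.84 ± 0.86 (SE, n = 3 lines per type, adjusted p = 1.31e-06) on the log2(TPM + 1) scale. Ifitm3 belongs to a gene signature that the study drew from these samples, so its direction is not independent evidence. Ifitm1, a plasma membrane relative, had a listed value of 0 in each Type D Control line and was at 28.9, 71.7 and 17.7 TPM in Type V (adjusted p = 0.00179), and no fold is given against a group at 0. Ifitm2 stood apart from its relatives, with 448, 276 and 364 TPM in Type D and 326, 753 and 525 TPM in Type V. Its groups overlapped and the difference of -0.50 ± 0.38 did not pass (adjusted p = 0.426). Reads shared among genes as similar as these can be split unevenly by the counting, so the values of the 3 genes are less certain than others.

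Isg15, a ubiquitin-like protein, was at 0.145, 0 and 1.18 TPM in Type D Control against 3.37, 28.5 and 10.5 TPM in Type V Control, a difference of -3.07 ± 0.69 (adjusted p = 0.0055). Usp18, the protease that removes ISG15, was low in both types, with 0.109 to 0.434 TPM in Type D and 0.632 to 1.31 TPM in Type V, and did not pass (adjusted p = 0.442). Among the IFIT proteins, which bind foreign RNA, Ifit2 was at 20.7, 20.2 and 22.1 TPM in Type D against 41.9, 76.8 and 38.0 TPM in Type V, a difference of -1.20 ± 0.31 (adjusted p = 0.0147). Ifit1 did not exceed 0.0677 TPM in Type D Control against 1.45, 9.96 and 6.14 TPM in Type V, but with an adjusted p of 0.0538 it did not pass. Ifit3 overlapped between the types. The family was therefore not uniform, with Ifit1 near 0 and Ifit2 above 20 TPM in the same Type D libraries.

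Of the GTPases that attack pathogen vacuoles, Gbp2 was at 0.178, 1.49 and 0.803 TPM in Type D Control against 5.53, 17.2 and 19.6 TPM in Type V Control, a difference of -2.95 ± 0.52 (adjusted p = 0.000769). Igtp, also known as Irgm3, was at 0.594, 1.42 and 1.15 TPM in Type D against 2.99, 3.51 and 5.97 TPM in Type V, a difference of -1.31 ± 0.32 (adjusted p = 0.00984). Both genes were lower in every Type D line than in any Type V line. Gbp3, Gbp7 and Irgm1 had differences of -1.24, -0.95 and -0.79 that did not pass, and Irgm1, at 24.2 to 34.9 TPM in Type D and 40.5 to 65.9 TPM in Type V, was the most abundant of the family.

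Sensors and transcription factors were split. Ddx58, which encodes the RNA sensor RIG-I, was at 2.26, 5.48 and 4.45 TPM in Type D Control against 12.8, 8.18 and 20.5 TPM in Type V Control, a difference of -1.52 ± 0.33 (adjusted p = 0.00428). The related sensors Ifih1 (MDA5) and Dhx58 (LGP2) and the endosomal sensor Tlr3 differed by -0.60, -0.71 and -0.06 and did not pass. Irf5, a factor best known in myeloid cells, was at 0.238, 0.0697 and 0.39 TPM in Type D against 1.85, 4.72 and 6.50 TPM in Type V, a difference of -2.02 ± 0.60 (adjusted p = 0.0325). Stat3, which carries signals of cytokines such as interleukin-6, was at 37.4, 52.8 and 36.3 TPM in Type D against 89.2, 95.4 and 147 TPM in Type V, a difference of -1.35 ± 0.21 (adjusted p = 0.000186). Irf5 and Stat3 were the factors that differed, whereas the factors closest to interferon signaling did not pass. Irf9 was at 11.0 ± 1.84 TPM (SD, n = 3) in Type D Control and 10.8 ± 3.02 TPM in Type V Control, and Irf3 at 46.8 ± 2.36 TPM and 38.3 ± 3.23 TPM. Stat2 was at 6.08 ± 3.20 TPM and 8.57 ± 1.46 TPM, and Irf7 at 1.04 ± 0.18 TPM and 0.97 ± 0.78 TPM. Irf1, which is induced by interferon gamma, was at 20.0 ± 8.22 TPM and 34.8 ± 16.9 TPM, and Irf2, its antagonist, at 39.8 ± 3.77 TPM and 45.0 ± 3.69 TPM.

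Parp14, an ADP-ribosyltransferase, was at 0.181, 0.132 and 0.222 TPM in Type D Control against 4.09, 3.56 and 8.72 TPM in Type V Control, a difference of -2.37 ± 0.25 (adjusted p = 3.82e-06). Parp9 and its partner Dtx3l, which lie beside Parp14 on the chromosome, differed by -0.92 and -0.78 with adjusted p of 0.0188 and 0.0401, short of the required size. Xaf1, a proapoptotic partner of XIAP, was at 0.841, 1.18 and 1.86 TPM in Type D against 5.70, 6.98 and 9.11 TPM in Type V, a difference of -1.85 ± 0.23 (adjusted p = 1.92e-05). Ifi35, which binds NMI in a cytoplasmic complex, was at 24.1, 21.2 and 19.2 TPM in Type D against 45.1, 38.6 and 82.5 TPM in Type V, a difference of -1.25 ± 0.29 (adjusted p = 0.00659). No Type D value of these genes reached the lowest Type V value. The direct antiviral effectors Bst2 (tetherin), Eif2ak2 (PKR), Adar (an RNA editing enzyme) and Mx2 had differences between -0.49 and 0.60 that did not pass.

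**Figure D2:**
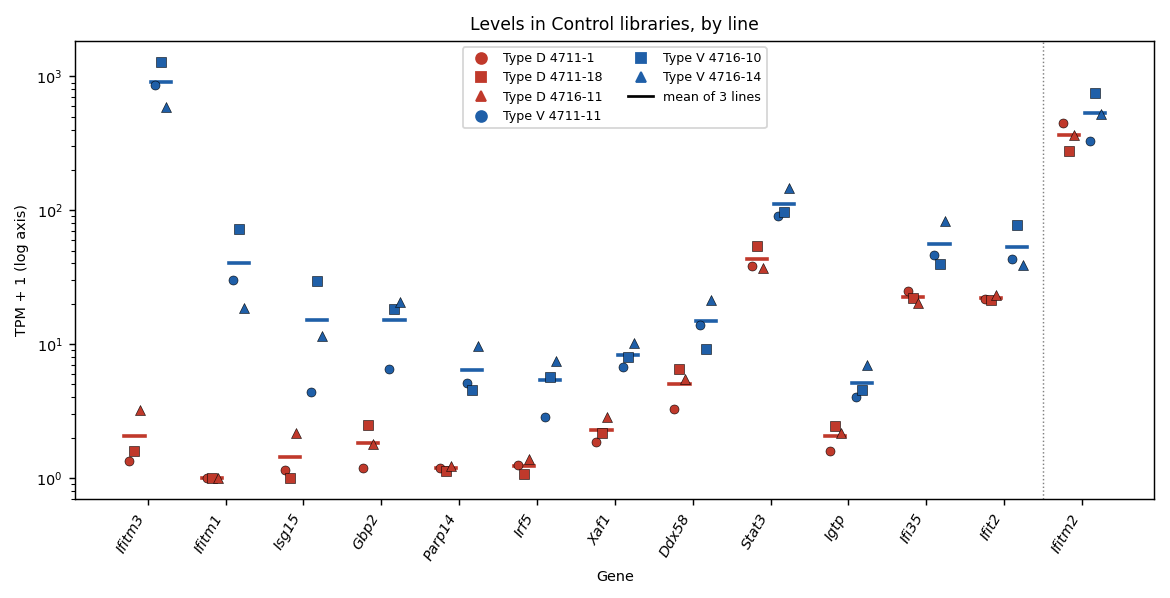
TPM + 1 on a log axis in the Control libraries for the 12 members lower in Type D and, right of the dotted line, for Ifitm2. Each point is 1 line, red for Type D and blue for Type V, and each bar is the mean of 3 lines. The red and blue points are separate for the 12 members and mixed for Ifitm2.

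Several of these calls rest on few lines. The call for Irf5 was lost without any 1 of the Type D lines, that for Ifit2 without 4711-1, 4716-11 or 4716-10, that for Ifi35 without 4716-11 or 4716-14, and that for Igtp without 4716-14. With only the Control libraries in the fit, 7 of the 12 passed, and Ifit2, Isg15, Ddx58, Igtp and Ifi35 did not. The fibroblast marker sum was 0.614 to 1.34 TPM in Type D Control and 192 to 494 TPM in Type V Control, and the neuroendocrine marker sum 3.69 to 6.11 TPM and 23.1 to 61.3 TPM. Their part in the type difference was not tested. Line and type cannot be told apart in a fit of these groups, so no fixed block for line was possible here. The spread came from all 24 libraries, in which each line enters 4 times as if independent. Libraries of a line correlated, so the limma p-values between types can be too small, here and after restoration.

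After restoration, Ifitm3, Parp14, Xaf1 and Stat3 were again lower in Type D. Of the 41 members, 14 were lower in Type D Restored than in Type V Restored, beside 9.44% of all genes called and 4.99% called as lower. Of these, 11 were also lower in Control, which is 11 of 12 and 11 of 14. The matching overlap over all genes was not counted, so this one is not read as a trait of the members. Igtp no longer passed, and Gbp7 (-1.47 ± 0.40, adjusted p = 0.0172), Irgm1 (-1.45 ± 0.44, adjusted p = 0.031) and Sp100, a nuclear body protein (-1.20 ± 0.38, adjusted p = 0.0399), now did. Of the 14, Gbp7, Sp100, Ifitm1, Parp14 and Irf5 passed the expression filter through Type V alone, where 21.1% of all genes were lower. Among the 30 members that passed the filter in both types, 9 were lower, beside 3.76% of all genes of that class. Ifitm3 was at 3.59, 0 and 17.6 TPM in Type D Restored and at 1103, 1803 and 1327 TPM in Type V Restored, a difference of -8.30 ± 0.86 (adjusted p = 2.75e-06). The count was 8 without line 4711-1, 9 without 4711-18, 8 without 4716-14 and 5 with only the Restored libraries in the fit. Without 4711-11 the difference of Irgm1 was -0.92, and Ifitm1 did not pass after median-ratio scaling or quantile normalization.

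The next question was what p53 restoration did to the members within each type. In Type D lines 4 members rose, which were Igtp, Xaf1, Ifi35 and Trim21, and in Type V lines 5 rose, which were Xaf1, Ifi27, Ifi35, Irf7 and Trim21. Those 4 of 41 stand beside 6.93% of all genes called in Type D and 4.49% called as higher, and those 5 of 41 beside 5.29% called in Type V and 3.39% called as higher. Xaf1, Ifi35 and Trim21 were on both lists, as 3 of 4 and 3 of 5, and the matching overlap over all genes was not counted. Median changes over the tested members were 0.20 in Type D and 0.18 in Type V on the log2(TPM + 1) scale, beside 0.07 and 0.05 over all genes. In Type D 37 of 41 members did not pass, and in Type V 36 of 41.

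Xaf1 rose in every line. It went from 0.841, 1.18 and 1.86 TPM in Type D Control to 3.32, 4.42 and 5.67 TPM in Type D Restored, a change of 1.26 ± 0.23 (adjusted p = 0.000847). In Type V it went from 5.70, 6.98 and 9.11 TPM to 25.2, 17.5 and 17.2 TPM, a change of 1.34 ± 0.23 (adjusted p = 0.000572). The highest Type D Restored value of Xaf1, 5.67 TPM, was still just below the lowest Type V Control value, 5.70 TPM. Both changes kept their call without any 1 line, whereas with only the compared groups in the fit that in Type V did not pass.

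Ifi35 went from 24.1, 21.2 and 19.2 TPM to 47.8, 56.4 and 53.5 TPM in Type D, a change of 1.25 ± 0.29 (adjusted p = 0.00647). In Type V it went from 45.1, 38.6 and 82.5 TPM to 128, 88.4 and 161 TPM, a change of 1.21 ± 0.29 (adjusted p = 0.00988). Restored and Control libraries did not overlap within either type. Ifi35 belongs to a gene module that the study built from these samples, so its rise is not independent evidence. Trim21, an Fc receptor and ubiquitin ligase of the cytosol, went from 3.61, 2.89 and 2.88 TPM to 6.31, 10.4 and 7.21 TPM in Type D, a change of 1.10 ± 0.25 (adjusted p = 0.00551). In Type V it went from 3.77, 3.57 and 7.13 TPM to 11.3, 7.95 and 12.1 TPM, a change of 1.01 ± 0.25 (adjusted p = 0.0122). Trim21 sat near the required size and missed it under quantile normalization, at 0.89 in Type D and 0.85 in Type V, and in Type V under median-ratio scaling, at 0.97.

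Igtp rose in Type D from 0.594, 1.42 and 1.15 TPM to 2.30, 5.76 and 6.40 TPM, a change of 1.44 ± 0.32 (adjusted p = 0.00502). In Type V its values were 2.99, 3.51 and 5.97 TPM in Control and 9.27, 7.77 and 8.04 TPM in Restored, a change of 0.90 ± 0.32 that did not pass (adjusted p = 0.0859). Igtp was the 1 raised member of Type D with the response element in its window. Irf7, the factor that amplifies the interferon response, went from 0.166, 1.02 and 1.73 TPM to 3.19, 3.48 and 2.66 TPM in Type V, a change of 1.14 ± 0.28 (adjusted p = 0.0125). In Type D Irf7 went from 1.08, 1.20 and 0.838 TPM to 3.29, 2.33 and 3.14 TPM, and its change of 0.94 ± 0.28 had an adjusted p of 0.0331 but was short of the required size. All 3 lines of both types had more Irf7 after restoration, at levels of a few TPM. Ifi27, a mitochondrial and nuclear envelope protein, went from 18.9, 21.1 and 26.9 TPM to 69.2, 58.8 and 46.4 TPM in Type V, a change of 1.34 ± 0.37 (adjusted p = 0.0227). In Type D Ifi27 was at 63.5, 29.3 and 48.9 TPM in Control and 126, 52.5 and 87.7 TPM in Restored, a change of 0.88 ± 0.37 that did not pass (adjusted p = 0.134). Ifi27 was the tested member with the highest Type D level relative to Type V in Control, by 1.00 on the log2 scale (adjusted p = 0.0791).

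**Figure D3:**
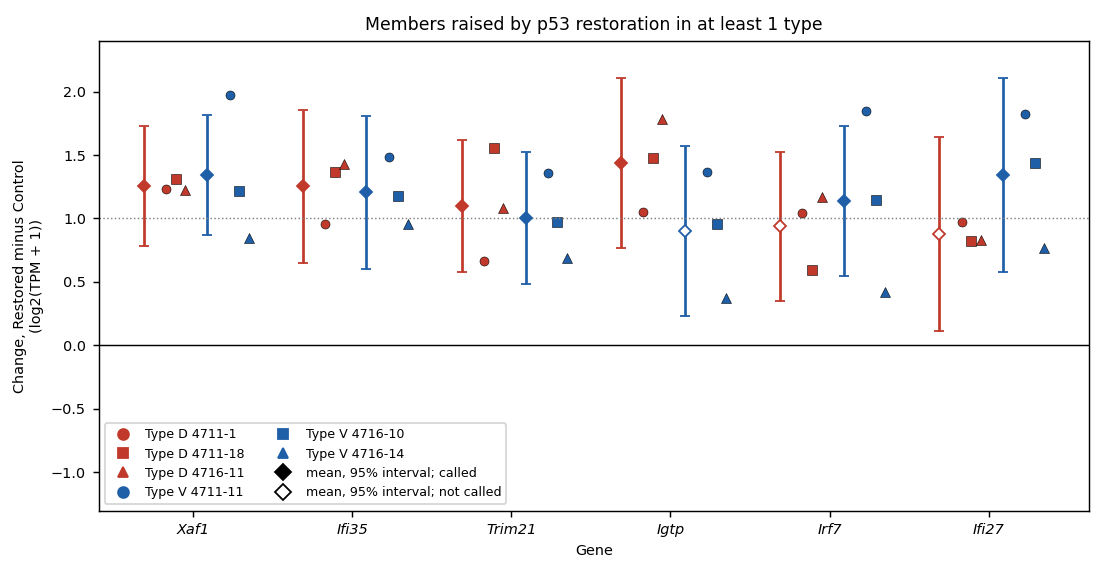
Change on p53 restoration, Restored minus Control on the log2(TPM + 1) scale, for the 6 members raised in at least 1 type. Small points are lines, diamonds are the mean with the 95% interval from limma, filled where the change passed, and the dotted line is the required size of 1. Every line change is above 0, and line 4711-11 has the largest Type V change of each gene.

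These counts depended on the lines. In Type D only Xaf1 passed without 4711-18 and only Xaf1 without 4716-11, where Igtp, Ifi35 and Trim21 were lost. In Type V only Xaf1 passed without 4711-11, the call for Ifi27 was also lost without 4716-10 or 4716-14, and that for Irf7 also without 4716-10. With the line as a block, which compares each line with itself, 5 members rose in Type D beside 11.2% of all genes called, and 8 changed in Type V beside 8.66%. The blocked fit added Ifitm3 in Type D (adjusted p = 0.0332) and Ifit3, Irf5 and Ifitm1 in Type V. With only the compared groups in the fit, 1 member, Ifi27, passed in Type V. With Cd68, a macrophage and lysosome marker, as its main part, the hematopoietic marker sum went from 8.13 to 10.2 TPM in Type D Control to 30.7 to 55.7 TPM in Type D Restored and from 7.97 to 10.8 TPM to 16.3 to 31.6 TPM in Type V, with Cd3e, Ptprc and Adgre1 at or near 0. Its part in these changes was not tested.

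The members gained with the block did not move alike in the 3 lines. Ifit3 went from 1.43, 5.25 and 2.81 TPM in Type V Control to 40.6, 11.8 and 5.42 TPM in Restored, and line 4711-11 again went up with CsA present, from 3.90 to 24.8 TPM. The change of Ifit3 over the 3 lines was 1.96 (adjusted p = 0.0994, and 0.00381 with the block), and without 4711-11 it was 0.89. Irf5 went from 1.85, 4.72 and 6.50 TPM to 5.66, 4.68 and 30.2 TPM, with steps in 4711-11 and 4716-14 and none in 4716-10, and under CsA 4716-14 went from 4.91 to 31.5 TPM. Its change of 1.09 had an adjusted p of 0.314, and of 0.0279 with the block. Ifitm1 went the other way, from 28.9, 71.7 and 17.7 TPM to 0.698, 44.0 and 10.4 TPM. The drop was by far largest in 4711-11, and the change of -1.85 had an adjusted p of 0.296, and of 0.00445 with the block. Without 4711-11 it was -0.70.

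A further pattern of this kind was seen in Mx1, which was below the filter. Line 4716-10 had 0.369 TPM of Mx1 in Control and 5.12 TPM in Restored, and 0.643 TPM and 5.36 TPM with CsA, while no other library exceeded 0.405 TPM. Mx1 rests on 1 line and had no test. Irgm1 went from 65.9 to 151 TPM in 4711-11, against 40.5 to 41.5 TPM in 4716-10 and 41.4 to 59.2 TPM in 4716-14. In Ifit1 the Type V lines went from 1.45, 9.96 and 6.14 TPM to 0.158, 9.66 and 1.37 TPM, so that Ifit1 and Ifit3, of the Ifit cluster on chromosome 19, moved in opposite directions in 4711-11 and 4716-14.

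**Figure D4:**
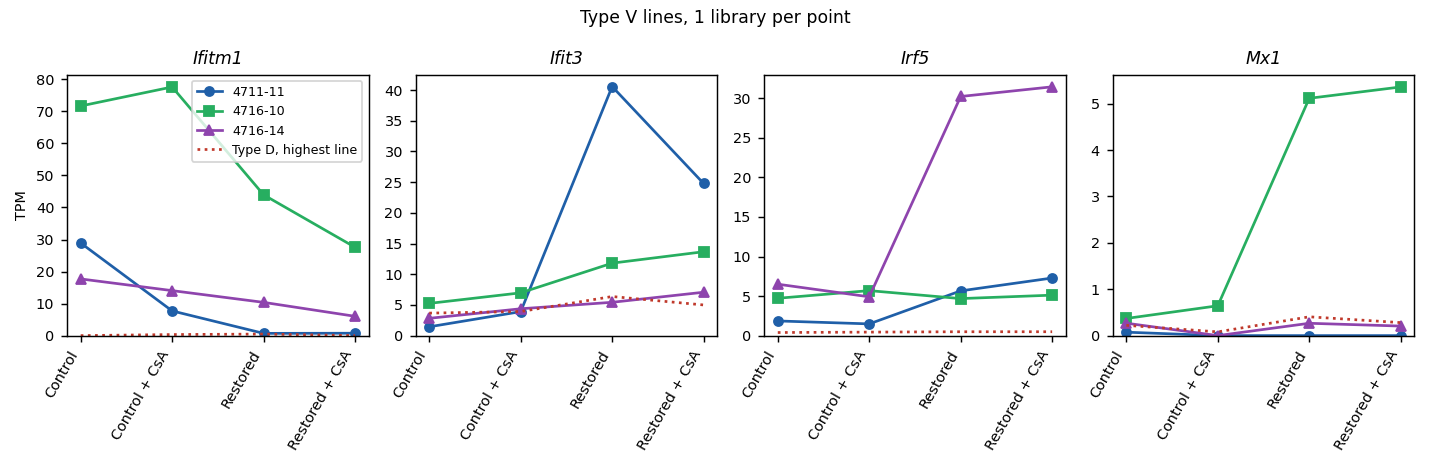
TPM of Ifitm1, Ifit3, Irf5 and Mx1 in the 3 Type V lines over the 4 conditions, 1 library per point, with the highest Type D line dotted. Restored libraries with and without CsA stand apart from Control libraries in line 4711-11 for Ifit3, in 4716-14 for Irf5 and in 4716-10 for Mx1.

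Among the factors, Irf3 rose by a small amount in both types. It went from 49.1, 46.9 and 44.4 TPM to 59.7, 66.9 and 66.8 TPM in Type D, a change of 0.45 ± 0.11 (adjusted p = 0.00919), and from 38.4, 41.4 and 35.0 TPM to 52.1, 52.1 and 48.8 TPM in Type V, a change of 0.41 ± 0.11 (adjusted p = 0.0215). Irf3 therefore passed the p threshold and not the size threshold, with no overlap between Control and Restored in either type. The change of the other factors did not exceed 0.39 in Type D outside Irf7, and Irf9 was at 14.9 ± 3.53 TPM after restoration, Stat2 at 6.52 ± 1.83 TPM, Stat3 at 40.4 ± 1.79 TPM, Irf1 at 21.2 ± 5.28 TPM and Irf2 at 41.9 ± 5.54 TPM. In Type V, Irf9 was at 11.7 ± 3.66 TPM after restoration, Stat2 at 8.40 ± 2.23 TPM, Stat3 at 109.9 ± 12.9 TPM, Irf1 at 30.7 ± 13.6 TPM and Irf2 at 52.1 ± 11.7 TPM. None of these 5 passed in either type, with adjusted p between 0.383 and 0.987.

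The remaining tested members did not pass for restoration in either type. Bst2 had the most negative change in Type D, from 54.0, 78.0 and 54.3 TPM to 52.9, 37.3 and 40.3 TPM (-0.50 ± 0.24, adjusted p = 0.198), and its change in Type V was -0.37. Tlr3, the endosomal sensor of double-stranded RNA, was at 7.13, 3.84 and 6.41 TPM in Type V Control and 15.8, 7.40 and 10.3 TPM in Type V Restored (0.82, adjusted p = 0.0646). In Type D the Tlr3 change was 0.44 (adjusted p = 0.349), each of the 6 lines had more Tlr3 after restoration, and Restored and Control libraries did not overlap within either type. Ifi30, a lysosomal thiol reductase of antigen processing, was at 113, 127 and 72.9 TPM in Type D Control and 179, 191 and 126 TPM in Type D Restored (0.68, adjusted p = 0.322), with a change of 0.70 in Type V. Usp18 had differences of 0.60 (Type D) and 0.73 (Type V), and for the sensors Ddx58, Ifih1 and Dhx58 they were -0.17 to 0.41 in Type D and -0.13 to 0.34 in Type V. For Trim25, a ligase that acts on RIG-I, they were -0.34 and -0.22. Oasl1 and Oasl2, OAS-like proteins at no more than 2.73 and 1.79 TPM in any library, had differences of -0.05 and 0.08 in Type D and of -0.47 and -0.19 in Type V. Oasl1 passed the expression filter through Type D alone and Oasl2 through Type V alone. Between the types in Control, Oasl2 differed by -0.85 (adjusted p = 0.0312), short of the required size, and Oasl1 by 0.35 (adjusted p = 0.535).

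The Type D Restored libraries were also set beside the Type V Control libraries. For 9 of the 12 members that were lower in Type D Control, every Type D Restored library was below every Type V Control library, beside 84.2% of all genes that were lower in Type D Control, so the count is not particular to the members. Isg15, Igtp and Ifi35 overlapped: Isg15 was at 0.44, 0.211 and 5.32 TPM in Type D Restored, with line 4716-11 alone above the lowest Type V Control value of 3.37 TPM. Stat3, at 38.6 to 42.2 TPM in Type D Restored, stayed at less than the lowest Type V Control value of 89.2 TPM. Gbp2, at 0.136, 1.30 and 2.01 TPM, and Parp14, at 0.458, 0.22 and 0.40 TPM, changed by 0.19 and 0.20 and did not pass. These are descriptions, since Type D Restored and Type V Control differ in line and condition together.

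**Figure D5:**
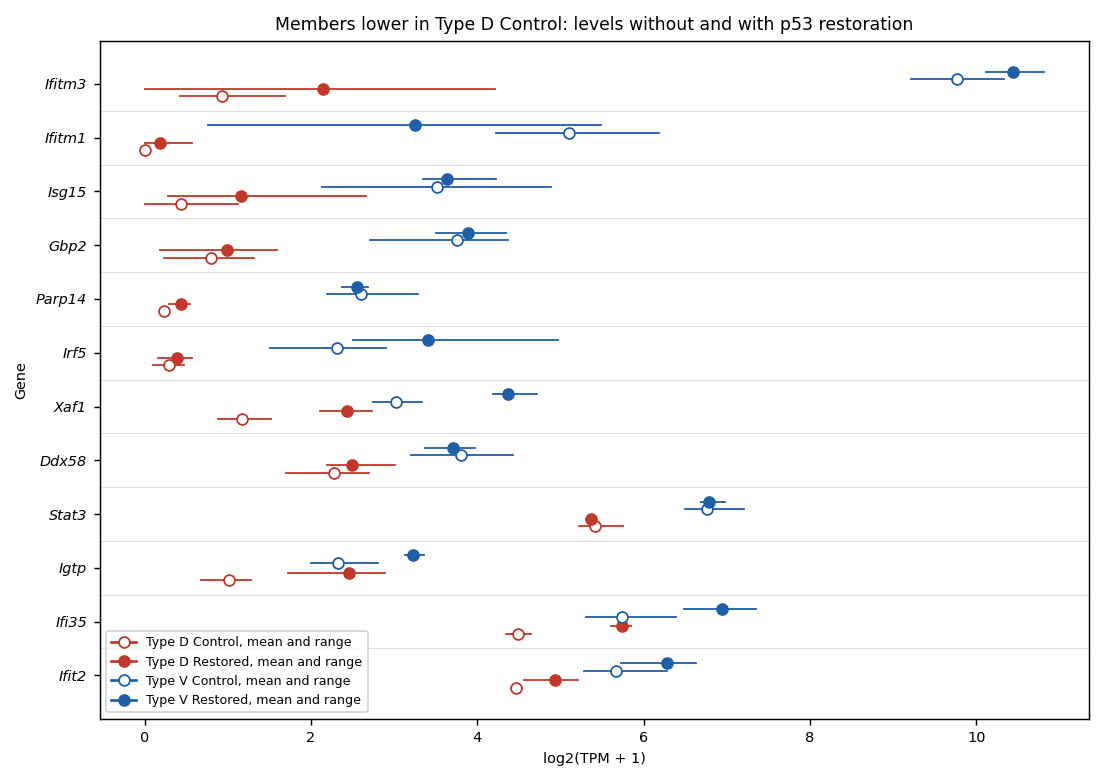
Mean and range over 3 lines of log2(TPM + 1) for the 12 members lower in Type D Control, in Type D (red) and Type V (blue), open for Control and filled for Restored. The filled red ranges lie left of the open blue ranges except for Isg15, Igtp and Ifi35.

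Next, the restoration change of each member was tested for a difference between the types. None of the 41 members passed for the difference of the restoration change (limma, 0 with an unadjusted p under 0.05), beside 0.0284% of all genes. With the line as a block none passed either, while 2.44% of all genes passed. An unadjusted p under 0.05 was then found for 7 members, beside 3162 of 14104 genes. The difference, Type D minus Type V, was -0.09 for Xaf1 with a 95% interval from -0.76 to 0.58, 0.04 for Ifi35 from -0.81 to 0.90, and 0.09 for Trim21 from -0.64 to 0.83. It was 0.54 for Igtp from -0.41 to 1.49, and -0.20 for Irf7 from -1.03 to 0.63. These intervals come from the fit without the block. For Igtp and Irf7 they hold differences near the size of the changes themselves, and for Xaf1, Ifi35 and Trim21 smaller ones. Equal responses were therefore not shown. Ifitm1 had the widest difference, 2.04 from -0.90 to 4.98, and with the block its interval was 0.66 to 3.42 (adjusted p = 0.0778).

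CsA was compared with no CsA in each type. Of the 41 members, 0 passed for CsA alone in Type D and 0 in Type V (limma, no member with an unadjusted p under 0.05, beside 0% of all genes in each). For CsA added to Restored, 0 passed in Type D beside 0.0142% of all genes and 0 in Type V beside 0%. With the line as a block none passed in these 4 comparisons. An unadjusted p under 0.05 was then found for 0, 2, 5 and 0 members in that order, beside 953, 609, 1771 and 633 of 14104 genes. The 1 member with an unadjusted p under 0.05 without the block was Irf7 in Type D, at 3.29, 2.33 and 3.14 TPM in Restored and 1.27, 1.5 and 1.40 TPM in Restored + CsA. That change of -0.71 had an adjusted p of 1, though the Irf7 values did not overlap.

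With CsA present in both arms, restoration raised Ifi35, Xaf1 and Igtp in Type D and Ifi35 and Xaf1 in Type V. These are 3 of 41 members beside 5.41% of all genes called and 3.53% called as higher, and 2 of 41 beside 4.61% called and 2.84% called as higher. Xaf1 went from 1.41, 1.54 and 2.16 TPM to 5.45, 5.79 and 7.15 TPM in Type D, a change of 1.40 ± 0.23 (adjusted p = 0.000354), and from 9.84, 9.74 and 8.78 TPM to 23.4, 19.0 and 20.4 TPM in Type V, a change of 1.07 ± 0.23 (adjusted p = 0.00458). Ifi35 went from 21.6, 24.7 and 27.5 TPM to 59.8, 58.4 and 70.2 TPM in Type D, a change of 1.32 ± 0.29 (adjusted p = 0.0054), and from 52.5, 37.9 and 79.8 TPM to 135, 85.7 and 158 TPM in Type V, a change of 1.16 ± 0.29 (adjusted p = 0.0156). Igtp went from 0.689, 1.69 and 2.09 TPM to 3.07, 4.04 and 5.42 TPM in Type D, a change of 1.08 ± 0.32 (adjusted p = 0.0411). The same genes had passed without CsA, in other libraries but of the same lines and in the same fit, so this is not independent evidence. In Type D, leaving out any 1 of the 3 lines left Xaf1 as the only member that passed. In Type V Ifi35 was lost without 4711-11 and Xaf1 without 4716-14. Under the block 5 members passed in Type V, beside 7.97% of all genes, with Ifit3, Irf5 and Ifitm1 added again.

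Other genes of the interferon pathway were listed apart from the members, and 61 of 75 were tested. Of the interferon genes, 3 were on the list: Ifnl2 and Ifnl3 were listed at 0 in all 24 libraries, and Ifnb1 in 20, with 0.232 TPM at most in the others. These genes are named for their place in the pathway and not for their change. The receptor gene Ifnar1 was at 26.7 to 49.6 TPM and the kinase gene Jak1 at 52.3 to 97.6 TPM in every library. Of the 61 genes, 14 were lower and 3 higher in Type D Control, beside 8.83% of all genes called and 4.41% called as lower. The chemokine Ccl5 (-2.89 ± 0.90), the ADP-ribosyltransferase Parp12 (-2.63 ± 0.57), the immunoproteasome subunit Psmb8 (-2.55 ± 0.56) and the DNA sensor Cgas (-2.48 ± 0.36) were lower. Ccl5 and Psmb8 did not exceed 0.363 and 0.293 TPM in Type D Control. Cgas is in the signature that the study drew from these samples. The secreted glycoprotein Lgals3bp was higher in Type D (4.15 ± 0.65), at 838, 525 and 497 TPM against 15.0, 93.4 and 24.9 TPM, and the GTPase Gbp9 was lower (-2.35 ± 0.67). Adjusted p of these 6 genes lay at or under 0.0397.

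After restoration 8 of the 61 pathway genes were raised in the Type D lines, while 8 were raised and 1 was lowered in the Type V lines. Of all genes 6.93% were called in Type D and 4.49% called as higher, and in Type V 5.29% and 3.39%. The peptide transporter Tap1 went from 0.987, 0.449 and 0.837 TPM to 33.9, 38.6 and 46.0 TPM in Type D (4.53 ± 0.26) and from 5.60, 7.38 and 6.65 TPM to 98.3, 63.3 and 96.5 TPM in Type V (3.51 ± 0.26). Parp10, an ADP-ribosyltransferase, rose by 2.29 ± 0.22 in Type D and 1.61 ± 0.22 in Type V. Trafd1, a negative regulator of innate signaling, rose by 2.14 ± 0.23 and 1.77 ± 0.23. Ikbke, a kinase that acts on IRF3 and IRF7, rose by 1.79 ± 0.54 and 1.92 ± 0.54. The immunoproteasome subunit Psmb9 rose by 1.32 ± 0.30 and 1.17 ± 0.30, and Pml, the core of nuclear bodies, by 1.27 ± 0.19 and 1.34 ± 0.19. Nlrc5, an activator of MHC class I genes, rose by 1.84 ± 0.54 in Type V. Each Type D line also had more Nlrc5 after restoration, from 0.0949, 0.0278 and 0.103 TPM to 2.45, 0.416 and 3.52 TPM. Tap1, Parp10, Trafd1, Ikbke and Psmb9 lie in modules that the study built from these samples. The chemokine Cxcl10 fell in Type V from 21.8, 25.1 and 35.6 TPM to 1.26, 9.12 and 5.09 TPM (-2.43 ± 0.76, adjusted p = 0.0496). Adjusted p of the pathway genes raised here lay at or under 0.0346 for Type D and at or under 0.036 for Type V. The members that passed without the block changed by at most 1.44, less than Tap1, Parp10 or Trafd1 did in either type. With the block, Ifit3 (1.96) and Ifitm1 (-1.85) also passed in Type V.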

How the data were processed

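Stranded mRNA libraries of 24 samples (6 mouse SCLC lines, 4 conditions, 72 h) were sequenced by the authors, who deposited TPM values per gene. The study's methods name Kallisto or HISAT2 with builds mm10 and GRCm39 for the same step, and the processing notes per the labels name HISAT2, mm10 and GRCm39, so the tool and build behind the TPM values were not settled. Read depth is unknown, and the number of lines limits the precision. No columns were identical.

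TPM values were taken as log2(TPM + 1). Genes with at least 1 TPM in at least 3 libraries were kept (14104 of 25239). The 8 groups were fitted together in limma 3.58.1 (R 4.3.3), with moderated tests, a mean-variance trend and Benjamini-Hochberg adjustment over all tested genes, for 11 comparisons. The code was tested on simulated data. A member counted as changed at an adjusted p under 0.05 and a difference of at least 1. Intervals are 95% intervals of that fit. Fold changes on this scale understate the change of low genes. Replicate numbers mark the same line across conditions, and deviations from group means correlated at 0.599 to 0.929 within a line (36 pairs) and -0.675 to 0.0438 between lines of a type (72 pairs), so a block for the line was run as an alternative. Types hold different lines, so it does not apply between types, where the libraries of a line were counted as independent.

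Every member is accounted for, and values per line are given for members that passed in Control between types, for restoration, or with the block. The 48 members and the other lists were chosen with earlier results of these data known. Pathway genes were named for up to the 6 largest changes that passed. Motifs were searched in the 250 bases before RefSeq starts, and 9 members had no window. Figures were drawn in Python 3 with matplotlib.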

Additional observations from a re-analysis of the deposited data

Results flagged for a closer look

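No member passed for a difference of its restoration response between the types. Of the 61 other interferon pathway genes tested, 3 passed when the line was a block, beside 2.44% of all genes. Without the block 0 passed, beside 0.0284% of all genes (limma, 3 with an unadjusted p under 0.05, beside 540 of 14104 genes). The differences are Type D minus Type V on the log2(TPM + 1) scale. Cxcl10, a chemokine, differed by 2.718 (adjusted p = 0.0256), at 3.18, 8.73 and 6.35 TPM in Type D Control, 4.54, 9.59 and 8.34 TPM in Type D Restored, 21.8, 25.1 and 35.6 TPM in Type V Control, and 1.26, 9.12 and 5.09 TPM in Type V Restored. Lgals3bp, a secreted glycoprotein, differed by -1.355 (adjusted p = 0.00397), with more in each Type V line after restoration, at 15.0, 93.4 and 24.9 TPM before and 51.4, 237 and 87.4 TPM after. In Type D Lgals3bp was at 838, 525 and 497 TPM before and 1059, 526 and 661 TPM after. Slfn2, a Schlafen family member, differed by 1.117 (adjusted p = 0.0349), at 0.394, 0.23 and 6.12 TPM before and 2.19, 0.671 and 9.92 TPM after in Type D, and at 0.0956, 3.31 and 0.895 TPM before and 0.0834, 2.86 and 0 TPM after in Type V.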

How the results depend on the processing

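Members that passed in a comparison, with or without the block, were followed there under the alternatives, and none of these results reversed its direction. The other members were not followed. The alternatives were another pseudocount, no filter or a stricter filter on low values, quantile normalization, median-ratio scaling, only the compared groups in the fit, the block for the line, and leaving out each line. For single members, 162 results were on the same side of the threshold with a line left out, 56 were lost and 1 was gained, and under the other alternatives these were 259, 34 and 7. With only the compared groups in the fit, 7 members passed between types in Control and 5 in Restored, 1 for restoration in Type V and 0 for restoration under CsA in Type V. Under quantile normalization 3 passed for restoration in Type V and 1 with CsA. With the replicate block for the line 8 passed for restoration in Type V and 5 with CsA, and the block changed no count of members by more than 1.5 times elsewhere. With each line left out in turn, the count was 9 to 16 between types in Control and 8 to 18 in Restored. For restoration it was 1 to 4 in Type D and 1 to 4 in Type V, and with CsA 1 in Type D and 1 to 2 in Type V. The cause of these shifts was not tested, beyond the fewer libraries that a smaller fit holds. The depth of the libraries is unknown, so the level at which a listed 0 could hide a transcript cannot be given.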
